A study of Mus musculus with 57 samples.

Results

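The 10 genes described here belong to cartilage. They are the transcription factor genes *Sox9*, *Sox5* and *Sox6*, the matrix genes *Acan*, *Matn1*, *Matn3*, *Matn4*, *Hapln1* and *Comp*, and *Cnmd*, which encodes chondromodulin. These genes were taken by name from the raw count and TPM (transcript abundance scaled for gene length and library size) tables, where all 10 were found among 56860 listed genes, and collagen genes were left out. Bulk polyA RNA-seq had been done on mouse embryos of the 129/Sv background, either wild type (wt) or *Hoxa5*-/-, that is homozygous for the *Hoxa5* tm1Rob null allele, in which a neo cassette interrupts the homeobox in every cell of the embryo. The samples covered 7 contexts. Trachea and diaphragm were taken at E15.5, lung at both E12.5 and E15.5, and somites at either E10.5 or E12.5. The brown fat between the shoulder blades (iBAT) came from E18.5 fetuses. Each context had 4 wt and 4 *Hoxa5*-/- libraries, except somites at E10.5 with 4 and 3 and iBAT with 5 and 5, which gave 57 libraries. Libraries of a group are separate samples in the labels, and p-values measure the spread between them. Somite samples came from the neck and upper chest (levels C3 to T2). Spinal cord, limb buds and chest organs had been cut away, and the samples were not sorted into cell types.

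Cartilage forms where mesenchymal cells condense and turn on SOX9, which with its partners SOX5 and SOX6 switches on the genes of the cartilage matrix. The matrix is a collagen network filled with aggrecan (*Acan*), a large proteoglycan that the link protein HAPLN1 fastens to hyaluronan, and bridged by adaptor proteins such as the matrilins and COMP. In the embryo this tissue makes the rings that hold the trachea open and the models of the vertebrae and ribs. SOX9 is also made outside cartilage, for instance in the growing tips of the lung epithelium, and SOX6 in muscle.

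On GRCm39, the build of the deposited annotation, *Sox9* (ENSMUSG00000000567.6) lies on chromosome 11 at 112673050-112678586, *Acan* on chromosome 7 at 78703231-78764847, *Matn1* on chromosome 4 at 130671696-130682786 and *Matn4* on chromosome 2 at 164231313-164247080. The 10 genes sit at 10 separate places on 9 chromosomes, with *Acan* and *Sox6* sharing chromosome 7. *Sox5* overlaps 5 annotated antisense genes, *Sox6* 2, *Matn4* the protein-coding *Rbpjl* and *Hapln1* a processed pseudogene. On its own strand *Sox5* also overlaps 2 annotated genes, *Gm44068* and *Sox5it*. The strand setting of the counting is not given in the sources used here, so reads from the antisense pairs could not be told apart.

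All 10 genes rose between E10.5 and E12.5 in somites. The 250 bases upstream of the annotated start of the canonical transcript are shown for the matrix genes *Matn1*, *Matn4* and *Comp*, which rose by the largest folds besides *Acan*, and for *Sox6*. Each is written 5′ to 3′ on the strand of the gene, from the reference genome GRCm39. Capitals mark 6-base matches to ACAAAG or ACAATG on either strand (CTTTGT or CATTGT when read on the other), letters of the kind that SOX proteins bind.
Matn1, chr4:130671446-130671695, plus strand: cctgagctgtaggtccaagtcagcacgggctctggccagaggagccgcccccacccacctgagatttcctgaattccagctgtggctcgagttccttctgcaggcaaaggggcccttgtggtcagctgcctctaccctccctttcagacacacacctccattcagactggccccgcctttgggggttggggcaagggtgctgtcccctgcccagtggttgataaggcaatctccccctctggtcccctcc
Matn4, chr2:164246535-164246784, minus strand: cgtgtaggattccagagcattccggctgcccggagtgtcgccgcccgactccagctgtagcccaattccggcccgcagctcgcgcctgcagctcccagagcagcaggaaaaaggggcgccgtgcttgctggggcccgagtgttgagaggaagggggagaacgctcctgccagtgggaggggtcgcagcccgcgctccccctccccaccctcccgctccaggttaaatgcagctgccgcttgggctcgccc
Comp, chr8:70825958-70826207, plus strand: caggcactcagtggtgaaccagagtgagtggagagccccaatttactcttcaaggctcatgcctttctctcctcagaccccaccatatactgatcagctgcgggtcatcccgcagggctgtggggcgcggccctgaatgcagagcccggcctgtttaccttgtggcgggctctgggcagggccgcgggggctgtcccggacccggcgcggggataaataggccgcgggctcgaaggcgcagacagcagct
Sox6, chr7:115594322-115594571, minus strand: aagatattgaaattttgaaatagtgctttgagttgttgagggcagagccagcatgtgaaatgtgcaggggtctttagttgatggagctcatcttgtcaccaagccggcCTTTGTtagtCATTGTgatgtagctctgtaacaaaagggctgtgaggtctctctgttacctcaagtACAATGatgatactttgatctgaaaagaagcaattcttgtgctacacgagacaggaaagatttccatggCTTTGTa
*Sox6* held 4 such matches, at -142, -132, -76 and -7 from its start, none of which overlap. No match lay in this window of the other 9 members. Among 21846 protein-coding genes, 22.5% held at least 1 match in a window of the same length. The canonical *Sox6* transcript starts inside the annotated gene and its window overlaps the antisense gene *Gm45025*, and the *Matn4* window lies within the antisense gene *Rbpjl*.

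Total counts per library ranged from 18369905 to 72991481. *Hoxa5* itself was lower in every mutant library than in any wt library of its context, for instance 20.9 to 37.7 TPM against 76.3 to 108.9 TPM in trachea and 29.2 to 43.6 against 92.7 to 112 TPM in somites at E12.5, as labelled. Residual transcripts from the interrupted gene are counted in these values. Markers found in the labelled tissues were *Epcam* at 243 to 375 TPM in trachea, *Sftpc* at 1144 to 7607 TPM in lung at E15.5, *Myog* at 1270.4 to 1924 TPM in diaphragm, *Meox1* at 125 to 194 TPM in somites at E10.5 and *Ucp1* at 2320.02 to 6969 TPM in iBAT. The foregut epithelium markers, *Epcam* among them, summed to 823 to 1876 TPM in trachea and 477 to 976 TPM in lung at E15.5, with overlap. In lung at E12.5 the lung epithelium markers summed to 534 to 691 TPM, against 288 to 644 TPM in trachea. Somite libraries at E12.5 also held skeletal muscle markers at a summed 1934 to 2984 TPM. Their neural markers summed to 222 to 506 TPM, limb bud markers to 169 to 224 TPM and foregut epithelium markers to 329 to 494 TPM. At E10.5, neural markers of the somite libraries summed to 767 to 1341 TPM. The part of these markers in the levels was not tested. Trachea, lung and diaphragm were sequenced at another centre than somites and iBAT, with another read layout, and levels are set side by side across that border without a test.

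The 10 genes were highest in trachea and in somites at E12.5, with exceptions among the *Sox* genes. In wt libraries, *Acan*, the core of the cartilage proteoglycan, reached 136 ± 19.3 TPM in trachea and 129 ± 22.7 TPM in somites at E12.5 (SD, n = 4 each), against 5.38 ± 2.13 TPM in diaphragm and under 1 TPM on average in lung, early somites and iBAT. *Cnmd*, which encodes a membrane protein of cartilage that restrains vessel growth, was highest in somites at E12.5 (255 ± 51.3 TPM) and trachea (188 ± 33.9 TPM), with overlapping ranges, and stood at 9.36 ± 2.13 TPM in somites at E10.5. *Sox9* was not limited to the cartilage-bearing tissues. It stood at 149 ± 15.9 TPM in somites at E12.5, 105 ± 21.3 in trachea, 86.0 ± 6.05 in lung at E15.5, 84.8 ± 20.7 in somites at E10.5 and 81.6 ± 5.19 in lung at E12.5, and only then dropped to 10.6 ± 6.28 in diaphragm and 2.13 ± 0.657 in iBAT. The ranges of the trachea, of both lung stages and of the E10.5 somites overlapped their neighbours in that order. *Sox6* in diaphragm, somites at E12.5, trachea and iBAT lay between 16.8 ± 1.26 and 14.6 ± 0.712 TPM, with ranges that overlapped between neighbours in the order. Below them, without overlap between neighbours, were lung at E12.5 (10.9 ± 0.646 TPM), lung at E15.5 (9.35 ± 0.326 TPM) and somites at E10.5 (6.61 ± 1.35 TPM). *Sox5* was low throughout, with at most 10.96 ± 2.18 TPM, in trachea.

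**Figure D1:**
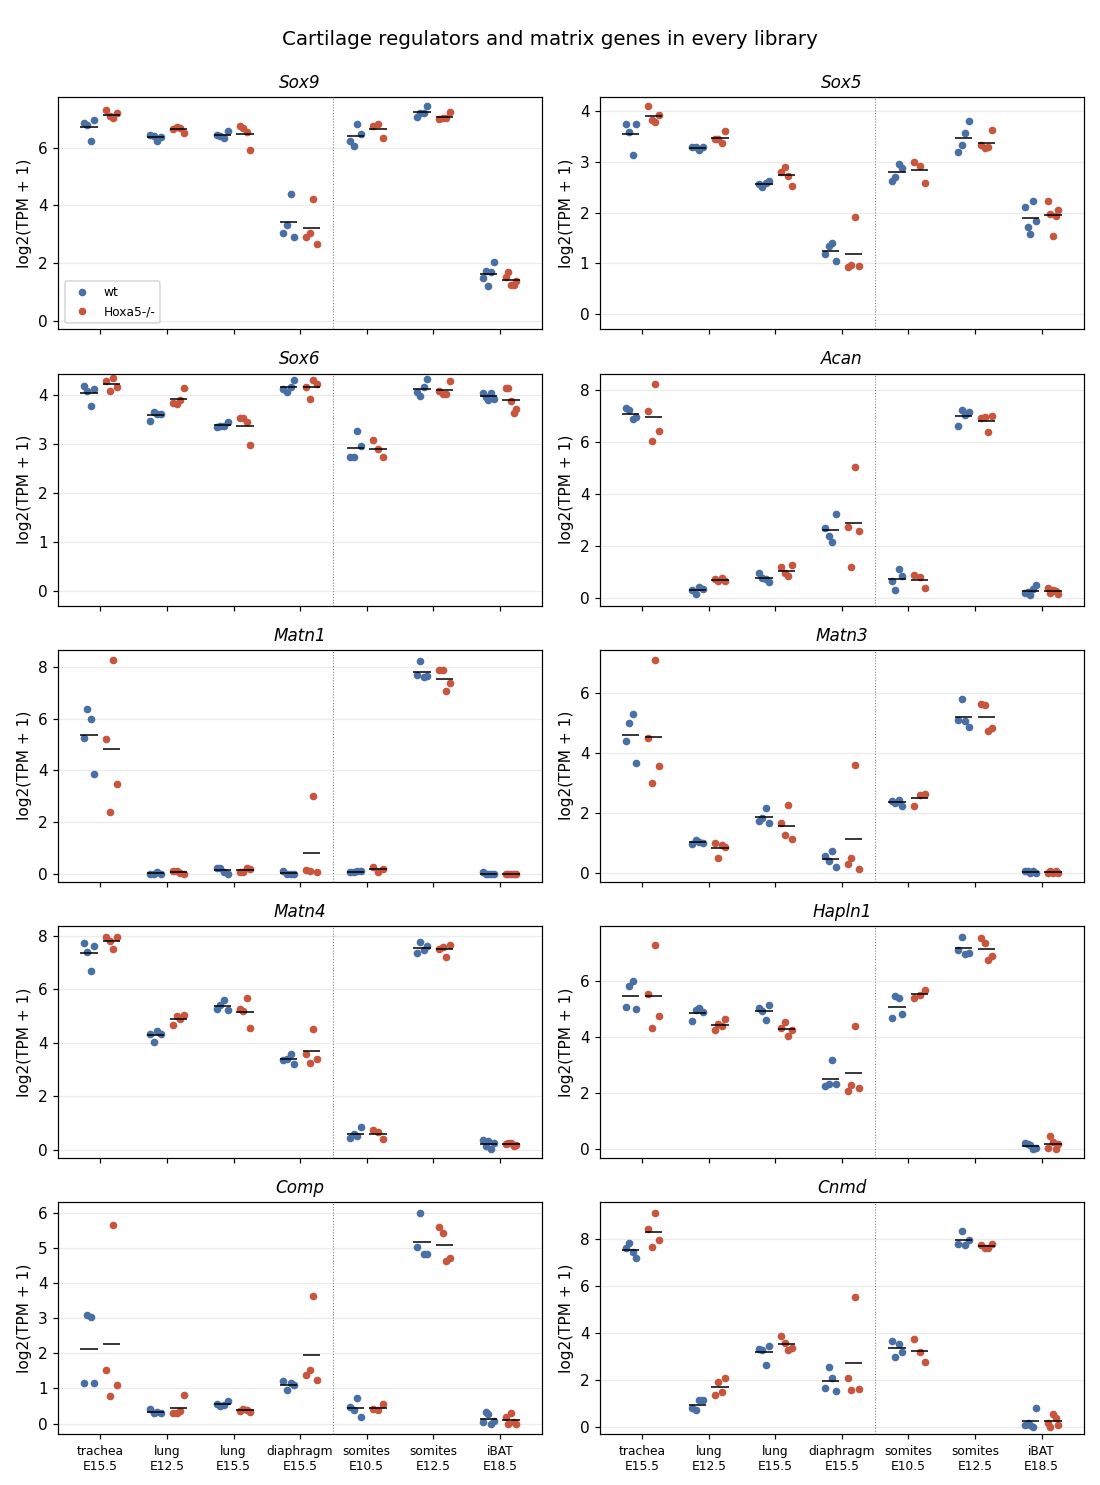
Level of each of the 10 genes as log2(TPM + 1) in every library, by tissue and stage, with wt in blue, *Hoxa5*-/- in red and the mean of each group as a bar. The dotted line parts the separately sequenced sets, and a reader should see the matrix genes rise in trachea and in somites at E12.5 while *Sox9* and *Sox6* are also high in lung or diaphragm.

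In wt somites, all 10 genes were higher at E12.5 than at E10.5 and all 10 passed the test, where 41.5% of 20687 tested genes were called and 23.4% were called higher at E12.5. Calls here and below needed an adjusted p under 0.05 and a fold of at least 1.5. Differences between genotype effects were called without a fold minimum. *Acan*, *Matn1*, *Matn4* and *Comp* averaged under 1 TPM in every other wt group of the fit. They were thus tested only through E12.5 somites, a condition that favours higher values at that stage. The median log2 fold change of the members was 3.88, beside -0.04 over all tested genes. In bulk samples, more cartilage cells and more RNA per cartilage cell cannot be told apart. The 3 regulators moved least. *Sox9* went from 74.0, 65.2, 113 and 87.3 TPM in the 4 libraries at E10.5 to 133, 145, 147 and 171 TPM at E12.5, a log2 fold change of 0.75 ± 0.14 (SE; adjusted p = 0.000108, edgeR quasi-likelihood test). No E12.5 library fell into the E10.5 range. *Sox5*, a SOX partner that has no activation domain of its own, rose by 0.71 ± 0.17 (adjusted p = 0.00107), and this call was lost to the fold minimum, at 0.57, when wt replicate 4 of E12.5 was left out. *Sox6*, its close relative, rose by 1.25 ± 0.11 (adjusted p = 7.34e-09).

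The matrix genes rose far more steeply, and from different starting points. *Matn1* was close to absent at E10.5, with 1 count in each of the 4 wt libraries, and stood at 207, 301, 194 and 197 TPM at E12.5. The ratio of its CPM values (counts scaled to library size) was 3141, with a 95% counting interval from 1226 to 11528 (Clopper-Pearson, which covers counting error only). *Acan* rose from 0.572, 0.236, 1.17 and 0.810 TPM to 97.9, 149, 129 and 142 TPM, by 7.49 ± 0.27 on the log2 scale (adjusted p = 4.16e-14). *Matn4* went from 0.365, 0.510, 0.421 and 0.827 TPM to 164, 215, 177 and 193 TPM, a log2 fold change of 8.40 ± 0.20. *Comp*, the cartilage oligomeric matrix protein gene, rose by 6.57 ± 0.39 and *Cnmd* by 4.69 ± 0.22. In the younger somites *Comp* and *Matn4* lay under 1 TPM in every wt library, and *Cnmd* between 6.96 and 11.6 TPM.

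*Matn3* and *Hapln1* were already on. *Matn3* was read at 4.30, 4.04, 4.38 and 3.72 TPM at E10.5 and at 32.9, 54.1, 32.2 and 28.1 TPM at E12.5, a log2 fold change of 3.08 ± 0.20. *Hapln1* had 24.4, 43.2, 40.9 and 27.4 TPM at the earlier stage and 135, 190.3, 123 and 127 TPM at the later, a change of 2.01 ± 0.18 (adjusted p = 1.17e-08). At E10.5 *Hapln1* was thus the member with the second highest TPM after *Sox9*, at a stage when *Acan*, whose product the link protein binds, was under 1 TPM on average.

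**Figure D2:**
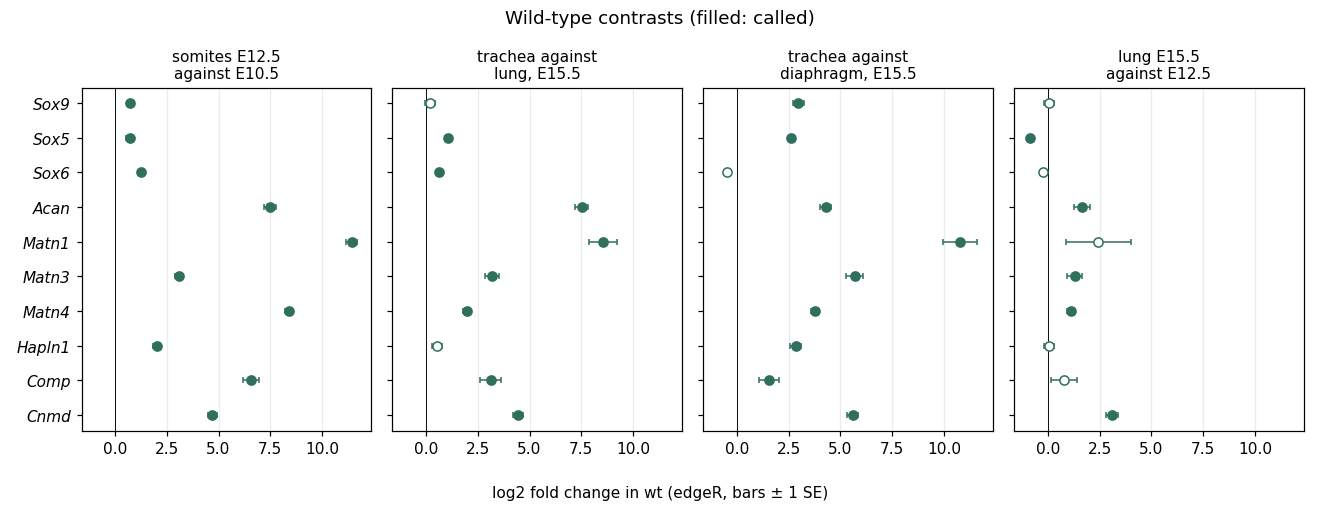
Log2 fold change of each gene in 4 wt contrasts, with bars of 1 standard error and filled points for genes that were called. All 10 points are filled for the somites, 8 for trachea against lung, 9 for trachea against diaphragm and 5 for the lung stages, with *Matn1* farthest to the right for the somites and for both trachea contrasts.

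The matrilins, adaptor proteins that link collagen fibrils with proteoglycans, all rose in somites, but their shares of the sum shifted. In each of the 7 somite libraries at E10.5, *Matn3* made up most of the summed TPM of *Matn1*, *Matn3* and *Matn4*, with 80.5% to 91.0% in wt and 80.9% to 91.9% in *Hoxa5*-/- libraries. At E12.5, *Matn3* was 6.73% to 9.49% of the sum in wt, while *Matn1* held 47.2% to 52.8% and *Matn4* 37.7% to 46.1%. In trachea, *Matn4* was the largest of the 3 in all 4 wt libraries, from 49.95% to 88.6%, and *Matn1* varied between 6.12% and 30.997%. In lung, *Matn4* was over 92% in every library of both stages. The mixture in the somites was alike between libraries and genotypes, and that in the trachea was not.

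**Figure D3:**
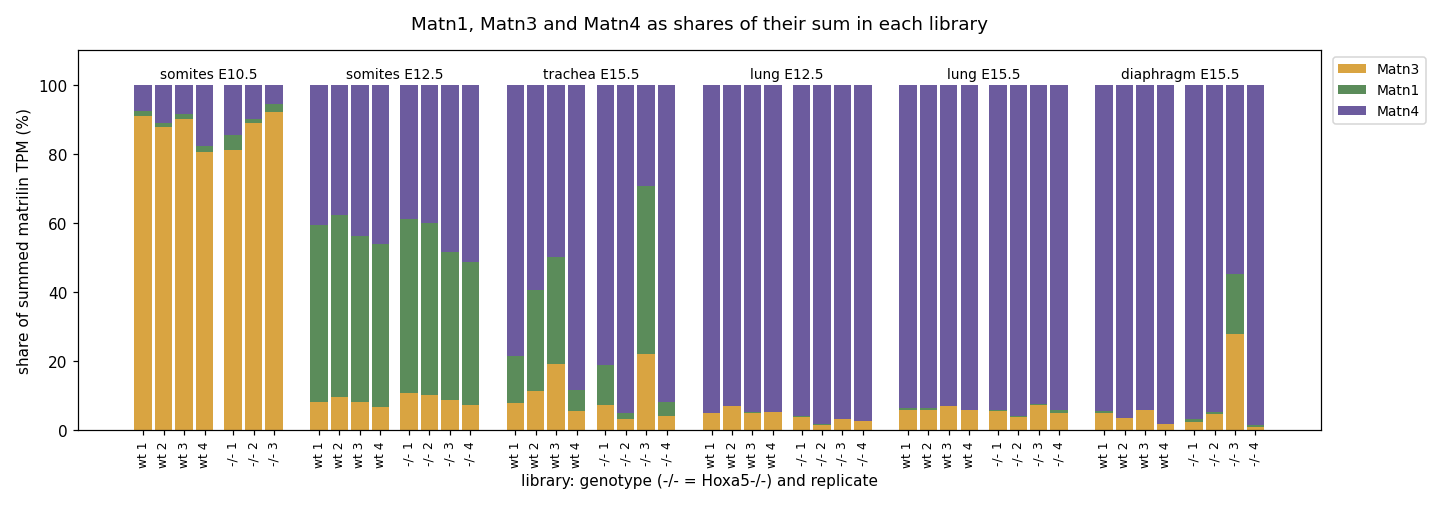
Share of *Matn3*, *Matn1* and *Matn4* in their summed TPM, 1 bar per library. *Matn3* fills most of each bar in somites at E10.5, *Matn1* and *Matn4* share the bars at E12.5, *Matn4* fills those of lung and most of diaphragm, and the trachea bars differ from library to library, with *Hoxa5*-/- replicate 3 at 29.2% *Matn4* and replicate 2 at 95.2%.

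Against lung of the same stage, wt trachea had 8 of the 10 genes called higher and none lower, where 30.8% of 20455 genes were called and 19.7% were called higher in trachea. The regulator *Sox9* was not among them, with a log2 fold change of 0.22 ± 0.24 (adjusted p = 0.480), and neither was *Hapln1*, at 0.54 ± 0.24 (adjusted p = 0.0781), which was called when wt trachea replicate 1 or 4 was left out. *Acan* was read at 156, 149, 117 and 124 TPM in trachea and at 0.913, 0.704, 0.656 and 0.502 TPM in lung, a difference of 7.51 ± 0.31. *Matn1* rested on 9 counts over the 4 lung libraries, and its ratio of CPM was 451, with a counting interval from 237 to 987. *Matn1* was tested only through its trachea mean of 48.3 TPM, which favours higher values there. *Cnmd* differed by 4.42 ± 0.24, *Matn3* by 3.19 ± 0.35, *Comp* by 3.12 ± 0.52 and *Matn4* by 1.96 ± 0.17. *Sox5* and *Sox6* were higher by 1.07 ± 0.13 and 0.64 ± 0.09. In lung, *Matn4* still stood at 40.7 ± 5.19 TPM and *Hapln1* at 29.8 ± 4.67 TPM, while *Acan* and *Matn1* stayed under 1 TPM in every wt library.

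Against wt diaphragm, a sheet of muscle and tendon, 9 of the 10 genes were called higher in trachea, where 33.4% of genes were called and 17.3% were called higher. *Matn1*, among those 9, was again tested only through its trachea mean. *Sox9* differed by 2.96 ± 0.26, with 114, 109.6, 74.7 and 124 TPM in trachea and 7.20, 8.86, 19.9 and 6.53 TPM in diaphragm. The diaphragm library with 19.9 TPM, wt replicate 3, also had lung epithelium markers at a summed 549 TPM against 77.9 to 107 TPM in the other 7 diaphragm libraries, and their part in its *Sox9* level was not tested. *Sox6* was the exception, lower in trachea by 0.49 ± 0.09 on the log2 scale (adjusted p = 0.000238) and short of the fold minimum. Log2 ratios of mean TPM lay above the fitted values by a median of 0.36 over all genes in this contrast, and that of *Sox6* was -0.13. *Comp* differed by 1.57 ± 0.48 (adjusted p = 0.0119). That call rested on few libraries: without wt trachea replicate 2 it was lost (1.16, adjusted p = 0.0547), and likewise in a fit of these libraries alone (1.64, adjusted p = 0.0565).

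From E12.5 to E15.5, wt lung raised *Acan*, *Matn3*, *Matn4* and *Cnmd* and lowered *Sox5*, so that 5 of 10 genes were called, 4 of them up, where 23.1% of genes were called and 14.5% were called higher at E15.5. *Matn4* went from 18.97, 15.4, 20.9 and 18.97 TPM to 37.3, 41.5, 47.6 and 36.2 TPM (1.11 ± 0.17, adjusted p = 0.000103). *Cnmd* rose by 3.11 ± 0.30, from a mean of 0.961 to 8.26 TPM, and *Matn3* by 1.31 ± 0.36, from 1.03 to 2.63 TPM. *Acan* rose by 1.65 from a mean of 0.226 to 0.694 TPM, low at both stages, and was tested only through its levels in trachea and diaphragm. *Sox5* fell by 0.85 on the log2 scale, from a mean of 8.72 to 4.94 TPM. *Sox9* (0.05 ± 0.24) and *Hapln1* (0.05 ± 0.25) had adjusted p = 0.901 each.

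In iBAT the genes other than the *Sox* genes were near the floor of detection, with no member beyond those 3 reaching a group mean of 1 TPM. Against wt somites at E12.5, 9 members were called lower in iBAT, where 64.3% of 20687 genes were called and 36.0% were called lower. *Acan*, *Matn1*, *Matn4* and *Comp* were tested only through E12.5 somites, which favours lower values in iBAT. *Matn1* had 1 count over the 5 wt iBAT libraries and 0 in the 5 mutant libraries, which allows up to 0.0283 CPM. *Sox6* was called higher in iBAT on counts with TMM factors (0.99 ± 0.10) but its mean TPM was lower, 14.6 ± 0.712 against 16.5 ± 1.80, so its direction turned with the scaling: log2 ratios of mean TPM lay below the fitted values by a median of 1.16 over all genes. The other 9 were lower in iBAT on both scales.

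In wt somites, genes of 3 further cartilage lists were counted in the same way, where 23.4% of all genes were called higher. Of 15 other cartilage transcription and signalling genes, 11 were called higher and 1 lower in somites at E12.5 than at E10.5. *Runx3*, of the family that drives chondrocyte maturation, changed by 6.72 ± 0.41 and *Gdf5*, a joint signal, by 6.03 ± 0.31, while *Fgfr3* fell by 0.9998 on the log2 scale. Of 16 other noncollagen matrix genes, 15 were called higher and 1, the link protein gene *Hapln3*, lower (-1.73 ± 0.20), with *Snorc* at 0 TPM in all wt libraries at E10.5 and at 25.9 ± 9.17 TPM at E12.5, and *Cytl1* at 7.38 ± 0.28. Of 10 genes for chondroitin sulfate and hyaluronan synthesis, 8 were called higher and none lower, led by *Papss2*, which supplies sulfate donors (6.26 ± 0.18), and *Csgalnact1* (4.12 ± 0.19). The medians of the 3 lists were 1.92, 3.84 and 1.20.

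In trachea against lung, where 19.7% of all genes were called higher, 11 transcription and signalling genes were called higher and 1 lower, 12 matrix genes higher and 2 lower, and 4 synthesis genes higher and none lower. *Pax9*, a sclerotome and foregut factor, differed by 5.90 ± 0.997, *Ucma* by 5.10 ± 0.68, *Papss2* by 3.20 ± 0.14 and *Xylt1* by 1.48 ± 0.13. *Nkx3-2* was listed at 0 in all 4 lung libraries and at 1.02 ± 0.407 TPM in trachea, and *Snorc* had 24.6 ± 2.05 TPM in trachea against 0.199 ± 0.237 in lung. *Pth1r* (-1.54 ± 0.12), *Hapln3* (-0.87 ± 0.23) and *Fmod*, which encodes a collagen-binding proteoglycan that is not particular to cartilage (-3.17 ± 0.24), were higher in lung.
Against diaphragm, where 17.3% of all genes were called higher, the counts were 8 higher and 3 lower of 15, 9 higher and 3 lower of 16, and 4 higher and none lower of 10, with *Fgfr3* (3.65 ± 0.41), *Cytl1* (6.97 ± 0.36), *Papss2* (1.74 ± 0.13) and *Xylt1* (1.75 ± 0.14) above, and *Barx2* (-2.93 ± 0.39), *Sox8* (-2.90 ± 0.30), *Cilp* (-4.08 ± 0.32) and *Fmod* (-2.03 ± 0.23) below. In lung, E15.5 against E12.5, where 14.5% of all genes rose, 2 of the 15 rose and 5 fell, 5 of the 16 rose and 4 fell, and 2 of the 10 rose, among them *Fgfr3* (2.10 ± 0.38), *Pthlh* (1.14 ± 0.34), *Cytl1* (3.33 ± 0.33), *Prelp* (3.02 ± 0.21), *Csgalnact1* (1.67 ± 0.15) and *Papss2* (1.26 ± 0.14), with *Sox8* (-2.44 ± 0.39), *Otor* (-3.27 ± 0.30) and *Epyc* (-2.11 ± 0.64) falling. In iBAT against somites, where 36.0% of all genes were called lower, all 15 of the first list, 14 of the second and 8 of the third were called lower. *Prelp*, a leucine-rich proteoglycan gene of many connective tissues, was higher in iBAT (2.49 ± 0.14), and so was *B3gat3* in the fit (0.66 ± 0.08), although its mean TPM was lower (40.8 ± 5.28 against 57.4 ± 4.86).

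The central question of the series was what the loss of *Hoxa5* changes, and in trachea none of the 10 genes passed the test (edgeR, 0 called, as with DESeq2), where 0.0156% of 19220 genes were called. Their median log2 fold change was 0.42, beside 0.00 over all genes, but -0.18 without *Hoxa5*-/- replicate 3, and 3 had an unadjusted p under 0.05. *Sox9* was at 156, 134, 129 and 145 TPM in the 4 *Hoxa5*-/- tracheas and at 114, 109.6, 74.7 and 124 TPM in the wt, and *Sox5* at 16.3, 13.2, 12.7 and 14.1 against 12.51, 11.1, 7.83 and 12.4 TPM. Every mutant library lay above every wt library for these 2 of 10 genes, as for 2.08% of all genes, with log2 fold changes of 0.41 ± 0.14 and 0.36 ± 0.14 (adjusted p = 0.682 and 0.736). *Cnmd* was at 345, 205, 561 and 250.1 TPM in mutants and 200.4, 227, 176 and 148 TPM in wt, a difference of 0.85 ± 0.30 (adjusted p = 0.692) with overlapping groups. *Matn4* had 248, 223, 181 and 244 TPM against 209, 165, 100.7 and 193 TPM (0.42 ± 0.20, adjusted p = 0.762). Wt replicate 3 was the lowest of the 8 tracheas for *Sox9*, *Sox5*, *Sox6* and *Matn4*. It also had the highest summed markers of lung epithelium (644 TPM, others 288 to 407), foregut epithelium (1876 TPM, others 823 to 1485) and blood (11097 TPM, others 2707 to 8508), whose part was not tested. Without it the log2 fold changes were 0.28 for *Sox9* (adjusted p = 0.551), 0.23 for *Sox5* (0.654) and 0.24 for *Matn4* (0.734).

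The remaining matrix genes of the trachea varied widely between libraries, and the standard errors of their log2 fold changes reached 1.17 for *Matn1* and 1.36 for *Comp*. *Matn1* ranged 70.8-fold over the 8 tracheas, from 4.26 TPM in *Hoxa5*-/- replicate 2 to 302 TPM in *Hoxa5*-/- replicate 3, with 35.6 and 10.2 TPM in the other mutants and 36.6, 80.7, 62.5 and 13.3 TPM in wt. *Comp* ranged 68.4-fold, with 1.86, 0.730, 49.9 and 1.16 TPM in mutants and 1.24, 7.63, 7.27 and 1.24 TPM in wt. *Matn3* ranged 19.2-fold and *Hapln1* 8.09-fold, while *Acan* was at 143, 64.4, 297 and 85.3 TPM in mutants and 156, 149, 117 and 124 TPM in wt. In all 5 of these, *Hoxa5*-/- replicate 3 was the highest and *Hoxa5*-/- replicate 2 the lowest of the 8 libraries. *Sox9*, *Sox5*, *Sox6* and *Matn4* differed by 1.52- to 2.47-fold over the same libraries.

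*Hoxa5*-/- replicate 3 also carried skeletal muscle markers at a summed 3095 TPM, against 52.4 to 653 TPM in the other 7 tracheas, and the 16 other cartilage matrix genes at a summed 1465 TPM against 527 to 931 TPM. The part of those markers in its levels was not tested. Without that library, the log2 fold changes of *Matn1*, *Matn3*, *Acan*, *Hapln1* and *Comp* all turned sign, from 0.86, 0.77, 0.11, 0.41 and 1.60 to -1.55, -0.96, -0.49, -0.62 and -1.83, and again none was called. *Sox9* (0.28 to 0.50) and *Cnmd* (0.50 to 1.03) kept their sign whichever library was left out.

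**Figure D4:**
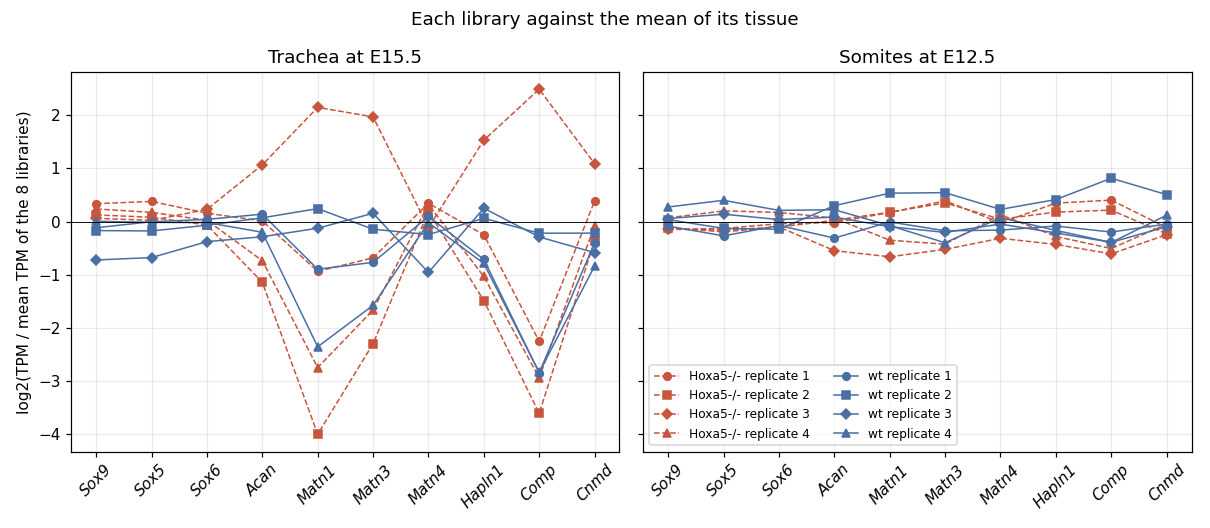
TPM of each gene in each library as log2 ratio to the mean of the 8 libraries of trachea at E15.5 (left) and of somites at E12.5 (right), wt in blue and *Hoxa5*-/- in red dashed lines. *Matn1*, *Matn3*, *Hapln1* and *Comp* fan out in trachea, with *Hoxa5*-/- replicate 3 on top, whereas the somite lines stay together.

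In somites at E12.5 the 8 libraries differed less. Over the 8 libraries *Matn1* ranged 2.29-fold, *Comp* 2.68-fold, *Matn3* 2.09-fold and *Sox9* 1.34-fold. None of the 10 genes was called for genotype (0.00529% of 18906 genes were called) and 0 of 10 had separate groups, as 2.51% of all genes did. The median log2 fold change was -0.11. *Sox9* had 133, 145, 147 and 171 TPM in wt and 128, 131, 128 and 149 TPM in *Hoxa5*-/- somites (-0.16 ± 0.08, adjusted p = 0.999). *Cnmd*, the only one with an unadjusted p under 0.05, had 224, 328, 216 and 251 TPM in wt and 214, 197, 195 and 224 TPM in mutants (-0.30 ± 0.12, adjusted p = 0.999). For *Acan*, *Matn1*, *Matn3*, *Matn4*, *Hapln1*, *Comp* and *Cnmd* the highest library was wt replicate 2 and the lowest was *Hoxa5*-/- replicate 3. DESeq2 called none either.

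At E10.5, 6 of the 10 genes reached 1 TPM and none was called, by edgeR or DESeq2 (0.0215% of 18573 genes were called), with no unadjusted p under 0.05 and no separate groups (7.37% of all genes). *Hapln1* had 24.4, 43.2, 40.9 and 27.4 TPM in wt and 40.5, 43.9 and 50.7 TPM in *Hoxa5*-/- somites, a log2 fold change of 0.37 ± 0.18 (adjusted p = 0.396). *Sox9* was at 107, 111 and 79.9 TPM in mutants, within the wt range. The difference between the genotype effects at both stages called none of the members (0.0147% of 20419 genes), and the largest shift among the regulators was that of *Sox9*, at -0.34 ± 0.18.

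The lung at E12.5 was the one place where a member was called: *Matn4* was higher in *Hoxa5*-/- libraries, 1 of the 7 members tested, where 0.0798% of 17548 genes were called. It was read at 24.5, 30.7, 28.6 and 32.1 TPM in the mutants and at 18.97, 15.4, 20.9 and 18.97 TPM in wt, so that the groups did not overlap, with a log2 fold change of 0.65 ± 0.09 (adjusted p = 0.0261). The fold stayed between 0.58 and 0.70 when single libraries were left out, but the call was kept in 1 of those 8 fits, the one without *Hoxa5*-/- replicate 1. In the others its adjusted p rose to as much as 0.124 or, without wt replicate 2, the fold fell under the minimum. It was also lost with the replicate number as a block (adjusted p = 0.235) and in 1 fit for all libraries of the table (0.327).

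For the other members tested in these lungs no difference passed the test. TPM was higher in every mutant than in every wt library for 5 of 7 genes, *Sox9*, *Sox5*, *Sox6*, *Matn4* and *Cnmd*, as it was for 2.42% of all genes. On CPM with TMM factors, 3 of them had separate groups, *Sox6*, *Matn4* and *Cnmd*, as 2.83% of all genes had in this direction. *Cnmd* was tested only through its mutant mean of 2.37 TPM (wt 0.961 TPM), a condition that favours higher mutant values. *Sox6* had 13.3, 12.97, 13.9 and 16.5 TPM against 9.98, 11.5, 11.1 and 11.1 TPM in wt (0.38 ± 0.08, adjusted p = 0.206), and *Cnmd* 1.59, 2.83, 1.84 and 3.23 against 0.775, 0.653, 1.21 and 1.20 TPM (1.29 ± 0.30, adjusted p = 0.240). *Hapln1* had 18.1, 21.2, 20.1 and 23.97 TPM in mutants and 23.02, 30.4, 31.5 and 28.5 TPM in wt (-0.44 ± 0.10, adjusted p = 0.240). *Acan*, too low for the test, had 0.634, 0.570, 0.678 and 0.573 TPM in mutants against 0.221, 0.107, 0.317 and 0.259 TPM in wt, on 8 to 97 counts per library. Summed skeletal muscle markers were 7.69 to 32.3 TPM in the mutant and 7.95 to 11.1 TPM in the wt lungs, and summed blood markers 3482 to 26025 TPM in the mutant and 3701 to 7083 TPM in the wt lungs. Their part was not tested.

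At E15.5 none of 8 members was called in lung (edgeR and DESeq2, 0.124% of 17777 genes called), though *Sox5*, *Acan* and *Hapln1* had an unadjusted p under 0.05. *Matn4* stood at 37.4, 35.3, 49.3 and 22.1 TPM in *Hoxa5*-/- and 37.3, 41.5, 47.6 and 36.2 TPM in wt lungs (-0.10 ± 0.14). The change of its genotype effect between the stages was -0.75 ± 0.17 (adjusted p = 0.539 by edgeR and 0.0381 by DESeq2), and no member was called by edgeR in that comparison (0.0267% of 18733 genes). *Hapln1* was again lower, at 18.9, 22.3, 15.6 and 18.1 TPM against 32.2, 29.6, 23.4 and 34.1 TPM in wt (-0.55 ± 0.17, adjusted p = 0.511). It was the 1 of 8 members whose TPM did not overlap between genotypes, as for 2.96% of all genes, but its CPM overlapped. On CPM the 1 separate member was *Sox5*, as were 4.38% of all genes. The genotype effects of *Hapln1* at E12.5 and E15.5 came from different libraries, and neither was called. They were alike in sign in all of the fits that left out a library. *Sox5* differed by 0.31 ± 0.08 (adjusted p = 0.405) and *Acan* by 0.78 ± 0.32 (adjusted p = 0.753). *Acan* was tested only through its mutant mean of 1.08 TPM (wt 0.694 TPM), which favours higher mutant values. *Hoxa5*-/- replicate 4 was the lowest of the 8 lungs for *Sox9* (59.6 TPM), *Sox6* (6.84 TPM) and *Matn4*. It had the fewest counts, 20692978 against 29702712 to 53939635, and the lowest summed lung epithelium (1822 TPM, others 2520.2 to 9575) and foregut epithelium (477 TPM, others 725 to 976) markers, whose part was not tested. Without it the log2 fold changes were 0.19 for *Sox9*, 0.11 for *Sox6*, -0.0228 for *Matn4* and -0.68 for *Hapln1* (adjusted p = 0.448), and *Acan* was not tested. *Comp*, too low for the test, had 0.291, 0.336, 0.314 and 0.246 TPM in mutants and 0.482, 0.412, 0.443 and 0.567 TPM in wt.

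In diaphragm, where 0.594% of 18019 genes were called, no member was called by edgeR or DESeq2, and 2 had an unadjusted p under 0.05. A single library set most values. *Hoxa5*-/- replicate 3 had 31.7 TPM of *Acan*, 7.01 of *Matn1*, 10.99 of *Matn3*, 19.8 of *Hapln1*, 11.4 of *Comp* and 46.3 of *Cnmd*. The other 3 mutant diaphragms had 1.30 to 5.53, 0.0407 to 0.101, 0.0810 to 0.400, 3.22 to 3.91, 1.34 to 1.90 and 1.96 to 3.29 TPM of the same genes, near the wt values. That library had the highest summed liver (10444 TPM) and blood (24101 TPM) markers of the 8 diaphragms, but wt diaphragms reached 8480 and 21267 TPM. Its muscle markers were the lowest (10649 TPM, others 13802 to 28478 TPM). The part of these markers was not tested. Without that library the log2 fold change of *Cnmd* went from 2.16 to -0.30, of *Acan* from 1.003 to -0.45 and of *Hapln1* from 0.61 to -0.49. *Comp* was the 1 of 10 members with separate groups (6.87% of all genes), with 1.60, 1.90, 11.4 and 1.34 TPM against 1.30, 0.944, 1.23 and 1.14 TPM in wt, and its fold change of 1.80 ± 0.71 became 0.48 without the library. With the replicate number as a block *Matn1* was called (6.19, adjusted p = 0.0290), on 1, 0, 0 and 0 counts in wt and 2, 2, 135 and 1 counts in mutants. *Matn1*, 1 of the 2 with an unadjusted p under 0.05, and *Matn3* were tested only through their mutant means. These were 1.81 and 2.93 TPM (wt 0.0193 and 0.396 TPM), and replicate 3 alone lifted them over 1 TPM. *Sox6* had 16.9, 14.003, 18.7 and 17.6 TPM in mutants and 16.3, 15.7, 16.8 and 18.6 TPM in wt. Other summed markers also differed between the genotypes. Neural markers were 28.9 to 59.7 TPM in wt and 7.99 to 11.3 TPM in mutant diaphragms. Limb bud markers were 57.4 to 66.4 against 40.9 to 52.4 TPM, and foregut epithelium markers 19.8 to 395 against 12.9 to 24.8 TPM. Somite markers went the other way, 117 to 137.2 against 137.4 to 151 TPM. Their part was not tested.

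The difference between the genotype effects in trachea and lung at E15.5 called no gene at all (0% of 20756), and no member had an unadjusted p under 0.05. Between trachea and diaphragm, 0.930% of 20756 genes differed but none of the members did. *Sox9* had an effect higher by 0.63 ± 0.43 in trachea, which was called with the replicate block (0.66, adjusted p = 0.0195), and *Sox5* one higher by 0.37 ± 0.36, which was called without *Hoxa5*-/- diaphragm replicate 3 (0.94, adjusted p = 0.0242). In iBAT the 3 *Sox* genes were tested and none was called by edgeR or DESeq2 (0.00657% of 15212 genes called; no unadjusted p under 0.05; no separate groups, with 0.316% of all genes). *Sox6*, at 13.9 to 15.4 TPM in wt and 11.2 to 16.5 TPM in *Hoxa5*-/- fat, changed by -0.03 ± 0.09.

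**Figure D5:**
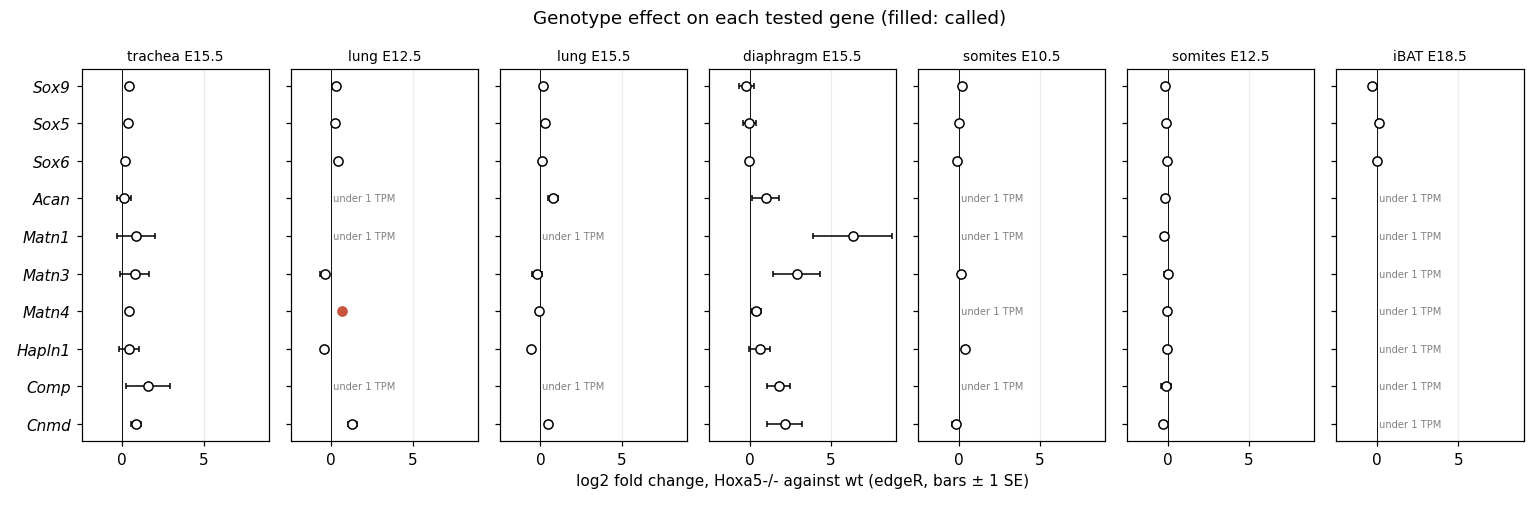
Log2 fold change between *Hoxa5*-/- and wt for each gene in each context, with bars of 1 standard error, a filled point for the 1 called value (*Matn4* in lung at E12.5) and the words under 1 TPM where a gene was not tested. The somite points lie close to 0 with short bars, and the bars are long for *Matn1*, *Matn3* and *Comp* in trachea and diaphragm.

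Of the 15, 16 and 10 genes of the other cartilage lists, none of those tested was called for genotype in any context. In trachea the medians of the 3 lists were 0.16, 0.26 and 0.15, and 0.12, -0.29 and 0.0950 without *Hoxa5*-/- replicate 3, a setting chosen after seeing the data. In somites at E12.5 they were -0.06, 0.02 and -0.09.

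Over all libraries of a table, the genes whose log2(TPM + 1) went most closely with the mean z-score of the 10 members were sought. In trachea, lung and diaphragm (32 libraries, 21113 genes) these were *Col11a2* (Pearson r = 0.987), *Col9a3* (0.978) and *Col9a1* (0.975), minor collagens of cartilage, then *Chad* (0.961), a cartilage leucine-rich protein gene, and *Meltf* (0.955). In somites and iBAT (25 libraries, 21309 genes) they were *Col9a3* (0.997) and *P3h1*, *Gria1*, *Ccn4* and *Fkbp10* (0.996 each). These points share tissue, stage and sequencing set, and in the second table they are split by stage and tissue. Among the members themselves, *Sox6* was least alike to the mean of the other 9 (r = 0.248 and 0.233 in the 2 tables), and *Matn3* was most alike in the first (0.951) and *Cnmd* in the second (0.981).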

How the data were processed

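RNA was sequenced from 57 mouse embryo samples. Per the labels and the methods of the study, the authors ran Trim Galore 0.6.5 on the reads, placed them on GRCm39 by STAR 2.7.9a and made gene counts by featureCounts 2.0.3 from an Ensembl/GENCODE annotation curated by hand for the Hox genes. They deposited raw counts per gene and, from the same reads, TPM values, in 1 pair of tables for trachea, lung and diaphragm (32 libraries, 20552280 to 72991481 counts each) and 1 for somites and iBAT (25 libraries, 18369905 to 28234711 counts each). The deposited counts were tested with edgeR 4.0.16 (quasi-likelihood test, TMM factors, Benjamini-Hochberg adjustment over all tested genes, R 4.3.3), and the deposited TPM gave the levels printed. Genes with a mean of at least 1 TPM in a group of the fit were tested. In the wt contrasts, some genes were therefore tested only through the group where they were high. A gene was called at an adjusted p under 0.05 and a fold of at least 1.5, without a fold minimum for differences between genotype effects. Standard errors were taken as the log2 fold change over the root of F. Tests were fitted within a table. Genotype was fitted per context, and wt contrasts and differences of effects over the groups they needed. DESeq2 1.42.0, other scaling and filters, 1 fit per table, a replicate block and leaving out each library were the alternatives. The code was tested on simulated data. Figures were drawn with matplotlib 3.10.9. Genes were named by rule: all 10 members, *Hoxa5*, up to 2 called genes with the largest fold per other list and direction in the wt contrasts, and the 5 genes per table most alike to the members. Members and lists were chosen with earlier results of these data known. Intervals cover counting error only.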

Additional observations from a re-analysis of the deposited data

Results flagged for a closer look

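In 97 groups of 4 or 5 libraries, 18 single values of the 10 genes lay far from the rest of their group, by a gap over range test (Dixon). Chance passes it in about 5% of groups if values are normally distributed. Whether these TPM values are so distributed was not tested. The genes share libraries, so the 18 are not independent.

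In *Hoxa5*-/- diaphragm, replicate 3 gave 9 of them. *Sox9* stood at 17.6 TPM (other libraries of the group 5.39 to 7.21), *Sox5* at 2.77 (0.901 to 0.948), *Acan* at 31.7 (1.30 to 5.53), *Matn1* at 7.01 (0.0407 to 0.101), *Matn3* at 10.99 (0.0810 to 0.400), *Matn4* at 21.8 (8.53 to 10.8), *Hapln1* at 19.8 (3.22 to 3.91), *Comp* at 11.4 (1.34 to 1.90) and *Cnmd* at 46.3 TPM (1.96 to 3.29). *Sox6* was the member not among them. In wt diaphragm, *Hapln1* was at 8.18 TPM in replicate 3 (3.74 to 4.08).

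In *Hoxa5*-/- trachea, replicate 3 gave 3: *Matn1* at 302 TPM (4.26 to 35.6), *Matn3* at 135 TPM (7.01 to 21.5) and *Comp* at 49.9 TPM (0.730 to 1.86).

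In somites at E12.5 there were 5. Among *Hoxa5*-/- libraries, *Sox9* was at 149 TPM (128 to 131) and *Sox5* at 11.3 TPM (8.63 to 9.02) in replicate 4, and *Acan* was low at 83.1 TPM (119.9 to 127) in replicate 3. Among wt libraries, *Matn1* was at 301 TPM (194 to 207) and *Comp* at 63.9 TPM (27.7 to 31.7) in replicate 2.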

How the results depend on the processing

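Of the counts of members called or separate, 99 stayed within 1.5 times under the alternatives that kept all libraries and 5 did not, and 168 did so without 1 library and 9 did not. In lung at E12.5 the count of 1 became 0 with the replicate block and in 1 fit per table (0 to 1 without single libraries), and 5 separate members became 3 on CPM, an alternative chosen after seeing the data. The replicate block gave 1 call in diaphragm (*Matn1*, 6.19, adjusted p = 0.0290), a gene tested there only because of *Hoxa5*-/- replicate 3. It also gave 1 for trachea minus diaphragm (*Sox9*, 0.66, adjusted p = 0.0195), where fits without single libraries gave 0 to 1. For the lung stages, DESeq2 called 1 member (*Matn4*, -0.75, adjusted p = 0.0381), and fits without single libraries gave 0 to 1, the call being *Matn4* without *Hoxa5*-/- replicate 3 at E15.5 (-0.89, adjusted p = 0.0284). With the block, *Acan* (-0.15), *Matn1* (-0.36) and *Matn3* (-0.0392) changed sign in trachea, and *Sox6* in iBAT against somites did so on the TPM scale (-0.18), also chosen after seeing the data. The cause was not tested.

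Leaving out single libraries, log2 fold changes in trachea ran from -0.49 to 0.36 for *Acan*, -1.55 to 1.26 for *Matn1*, -0.96 to 1.13 for *Matn3*, -0.62 to 0.71 for *Hapln1* and -1.83 to 2.02 for *Comp*. In diaphragm they ran from -0.74 to 0.27 for *Sox9*, -0.59 to 0.16 for *Sox5*, -0.0614 to 0.0873 for *Sox6*, -0.45 to 1.38 for *Acan*, -0.49 to 0.94 for *Hapln1* and -0.30 to 2.53 for *Cnmd*. Between wt lung stages they ran from -0.0038 to 0.0794 for *Sox9* and -0.0384 to 0.15 for *Hapln1*.

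Deviations of same-numbered wt and mutant libraries had correlations of -0.16 to 0.46, with a negative value in each context except iBAT (0.0770 to 0.189). In iBAT 4 of 5 wt libraries, and in diaphragm 3 of 4, correlated best with the mutant library of their own number. In any other context at most 2 did. The numbers were not taken as pairs in the main fits. In iBAT the labels also give both genotypes a shared number of unstated meaning, 4 of 5 pairs had a correlation over 0.1, and the block called none of the 3 members tested (*Sox9* -0.27, *Sox5* 0.12 and *Sox6* -0.0317, adjusted p = 0.999 each).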
